A study of Mus musculus with 3 samples.

Results

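The circadian clock genes were described in renin-producing cells of the mouse kidney. The set was fixed by name, as Clock, Arntl, Per1, Per2, Per3, Cry1, Cry2, Dbp, Tef and Npas2. The rule itself used no measured values, but earlier results of these data were known when the members were chosen. Of these 10 genes, 9 had a probe set named in the platform annotation, 1 probe set each, out of 19938 genes measured. Npas2, which encodes a partner of BMAL1 related to CLOCK, had no probe set listed under its symbol alone and was not analysed here. Probe sets listing several symbols were left out, so its absence from the array is not established.

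The samples were YFP-positive cells sorted from minced, collagenase-treated kidney cortex of adult male Ren1c-YFP mice, a line in which the renin promoter marks renin cells with yellow fluorescent protein. All animals were given captopril, which blocks angiotensin-converting enzyme, in the drinking water at 0.5 mg/ml together with low-salt chow for 2 weeks, a regimen known to raise renin production and the number of renin-expressing cells. The strain is unspecified in the labels, samples were not pooled, and RNA was amplified in 1 round before hybridisation to Affymetrix arrays. The series has 1 group of 3 arrays, replicates 2, 4 and 5, with no untreated or YFP-negative samples analysed here, so it gives levels and no effect of the treatment. The sources used here do not give the light cycle or the hour at which the kidneys were taken. Nothing states that the 3 samples came from separate animals, so each p-value reflects the spread among these samples alone, which may be technical.

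The mammalian clock is a transcriptional loop present in most cells. CLOCK and BMAL1, the product of Arntl, form a heterodimer that binds E-box elements and activates the Period (Per) and Cryptochrome (Cry) genes, whose proteins then inhibit the heterodimer. The nuclear receptors REV-ERB and ROR act on Arntl through ROR elements, and the PAR bZip factors DBP, TEF and HLF, opposed by NFIL3, act through D-boxes. In the kidney the clock is known for daily rhythms in sodium handling, and transcripts such as those of Arntl and of Dbp or the Per genes are known to peak at opposite times of day in many tissues.

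The letters of these elements can be searched for in the promoters of the members themselves. Stretches with a match are shown because the loop is known to act through elements of this kind. A match does not show that the loop acts at that position. The RefSeq promoter windows of GRCm38.p6, from 250 bases before to 50 after a transcript start, were searched on both strands. The motifs were the E-box CACGTG, its variant CACGTT, the D-box as TTACGTAA or TTATGTAA, the cAMP response element TGACGTCA and the ROR element. These motifs do not overlap each other in the stretches shown. Windows were found for 9 members, all except Per2. Each stretch is 30 bases, 5′ to 3′ on the gene's strand, with the match in capitals.

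Per1 E-box, chr11:69098771-69098800, plus strand: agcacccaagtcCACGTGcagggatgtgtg
Cry1 E-box, chr10:85185097-85185126, minus strand: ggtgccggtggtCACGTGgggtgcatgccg
Tef E-box, chr15:81802534-81802563, plus strand: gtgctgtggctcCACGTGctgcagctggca
Tef E-box at another transcript start, chr15:81811264-81811293, plus strand: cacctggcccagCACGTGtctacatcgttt
Cry1 E-box variant, read on the reverse strand, chr10:85185116-85185145, minus strand: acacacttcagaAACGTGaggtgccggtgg
Cry2 E-box variant, read on the reverse strand, chr2:92434218-92434247, minus strand: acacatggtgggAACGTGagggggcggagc
Per3 D-box, chr4:151044852-151044881, minus strand: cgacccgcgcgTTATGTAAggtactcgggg
Per3 second D-box, chr4:151044805-151044834, minus strand: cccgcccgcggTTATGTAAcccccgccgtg
Arntl ROR element, chr7:113207527-113207556, plus strand: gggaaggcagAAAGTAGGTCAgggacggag

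With the transcript start as 0, the E-box of Per1 began at -166, that of Cry1 at -60 and those of Tef at -127 and -138. The D-boxes of Per3 began at -205 and -158, and the ROR element of Arntl lay past the start. Thus 3 of 9 members with a window held an E-box, against 8.09% of 27025 genes (7.15% of 32851 windows). The variant was found in 4.68% of all windows, the D-box in 1.06%, the cAMP response element in 1.79% and the ROR element in 0.384%. No window of Clock, Dbp or Npas2 held any of these letters, and no member held the cAMP response element. Each match describes the sequence only, since no binding was measured.

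Levels are log2 signals as deposited, and each was read against a background level of its array, the 95th percentile of 1027 olfactory receptor genes (6.20, 6.32 and 6.50 in replicates 2, 4 and 5). A gene was called above background where limma's one-sided test gave an adjusted p under 0.05 over all genes. By this rule 3 of 9 clock genes were above background, against 37.3% of all genes (7437 of 19938), so the share called was near that of the array as a whole. Both measured activators, Clock and Arntl, passed, as did Cry1 among the repressors, while Per1, Per2, Per3, Cry2, Dbp and Tef did not. The median over the 9 genes was -0.21 relative to the level, and that over all genes was -0.01. The mean of 5 members lay at or under the level, as it did for 50.4% of all genes, and 4 members were under it on every array (43.7% of all genes). The 3 called members were above it on every array, as were 41.9% of all genes. Signals of different probe sets depend on probe affinity, so members are set against background and not against each other. In such bulk samples, fewer cells expressing a gene and less RNA per cell cannot be told apart.

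**Figure D1:**
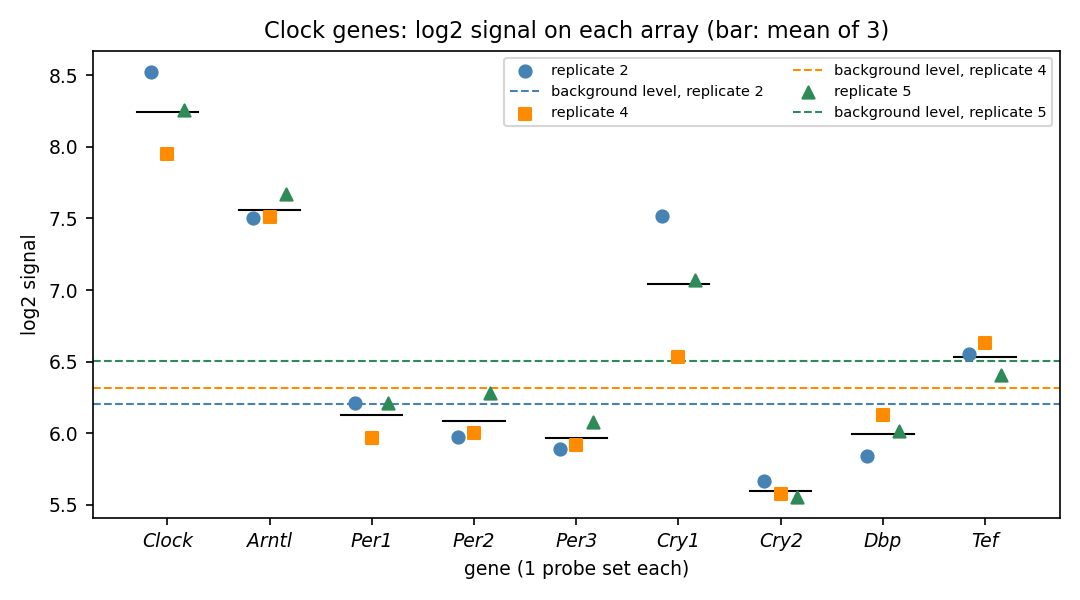
Log2 signal (vertical axis) of the 9 measured clock genes (horizontal axis) on each of the 3 arrays, with the mean as a black bar and each array's background level as a dashed line in its colour. Clock, Arntl and Cry1 lie above their level on all 3 arrays, Tef on 2 of 3, and Per2, Per3, Cry2 and Dbp on none.

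Clock encodes the larger partner of the activating heterodimer and carries histone acetyltransferase activity. Its log2 signal was 8.52, 7.95 and 8.26 in replicates 2, 4 and 5. All 3 values were well over the level, and none overlapped it. The mean of 8.24 ± 0.29 (SD, n = 3 here and below) stood 1.90 above background (95% interval 1.34 to 2.46, limma adjusted p = 0.000213). Against the 3 arrays' olfactory receptor genes, Clock was brighter than 99.5% to 99.8% of them.

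Arntl encodes BMAL1, the partner without which the loop stops. The 3 signals, 7.50, 7.51 and 7.67, were close together, and each exceeded its array's level by more than 1 log2 unit. The mean of 7.56 ± 0.10 was 1.22 above background (95% interval 0.77 to 1.67, limma adjusted p = 0.000673). With the level raised to the 99th percentile the excess was 0.36 and the call was lost (limma adjusted p = 0.196), whereas Clock kept its call there.

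Cry1 and Cry2 encode the cryptochromes, the stronger inhibitors of the heterodimer. Cry1 gave 7.52, 6.53 and 7.07 in replicates 2, 4 and 5. The first value was the highest and the second only 0.21 above its level, so the arrays disagreed on how far Cry1 exceeded background. The mean of 7.04 ± 0.50 was 0.70 above it (95% interval 0.16 to 1.24, limma adjusted p = 0.025). Without replicate 2 the excess was 0.39 and the call was lost (limma adjusted p = 0.15), and at the 99th percentile it was -0.16. Cry2 gave 5.67, 5.58 and 5.56, a mean of 5.60 ± 0.06 that was under the level on every array (-0.74, 95% interval -1.01 to -0.47). Between 76.9% and 86.6% of olfactory receptor genes were dimmer than Cry2.

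Per1, Per2 and Per3 encode the period proteins, which join the cryptochromes in the inhibitory complex. Per1, which is also an early response gene to cAMP and glucocorticoids, gave 6.21, 5.96 and 6.21 in replicates 2, 4 and 5. It touched its level in replicate 2, where it was 0.01 above, and was under it in the other arrays. The mean of 6.13 ± 0.14 lay at -0.21 from the level (95% interval -0.52 to 0.09). Per2 gave 5.97, 6.00 and 6.28, with a mean of 6.09 ± 0.17 at -0.26 (95% interval -0.53 to 0.02). Per3 gave 5.89, 5.92 and 6.08, with a mean of 5.96 ± 0.10 at -0.38 (95% interval -0.64 to -0.11). For Per2 and Per3 every array was under its own level, and replicate 5, where both were highest, was also the array with the highest level. The test gave a limma adjusted p of 1 for each of the 3 genes. A signal under the level bounds what the probe set could register and does not show that the transcript was absent.

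Dbp and Tef encode PAR bZip factors that carry the rhythm to output genes. Dbp gave 5.84, 6.13 and 6.02, all under the level, with a mean of 6.00 ± 0.14 at -0.35 (95% interval -0.63 to -0.06). Tef gave 6.55, 6.63 and 6.41, above the level in replicates 2 and 4 and under it in replicate 5. Its mean of 6.53 ± 0.11 was 0.19 above the level and did not pass (95% interval -0.17 to 0.55, limma adjusted p = 0.293).

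**Figure D2:**
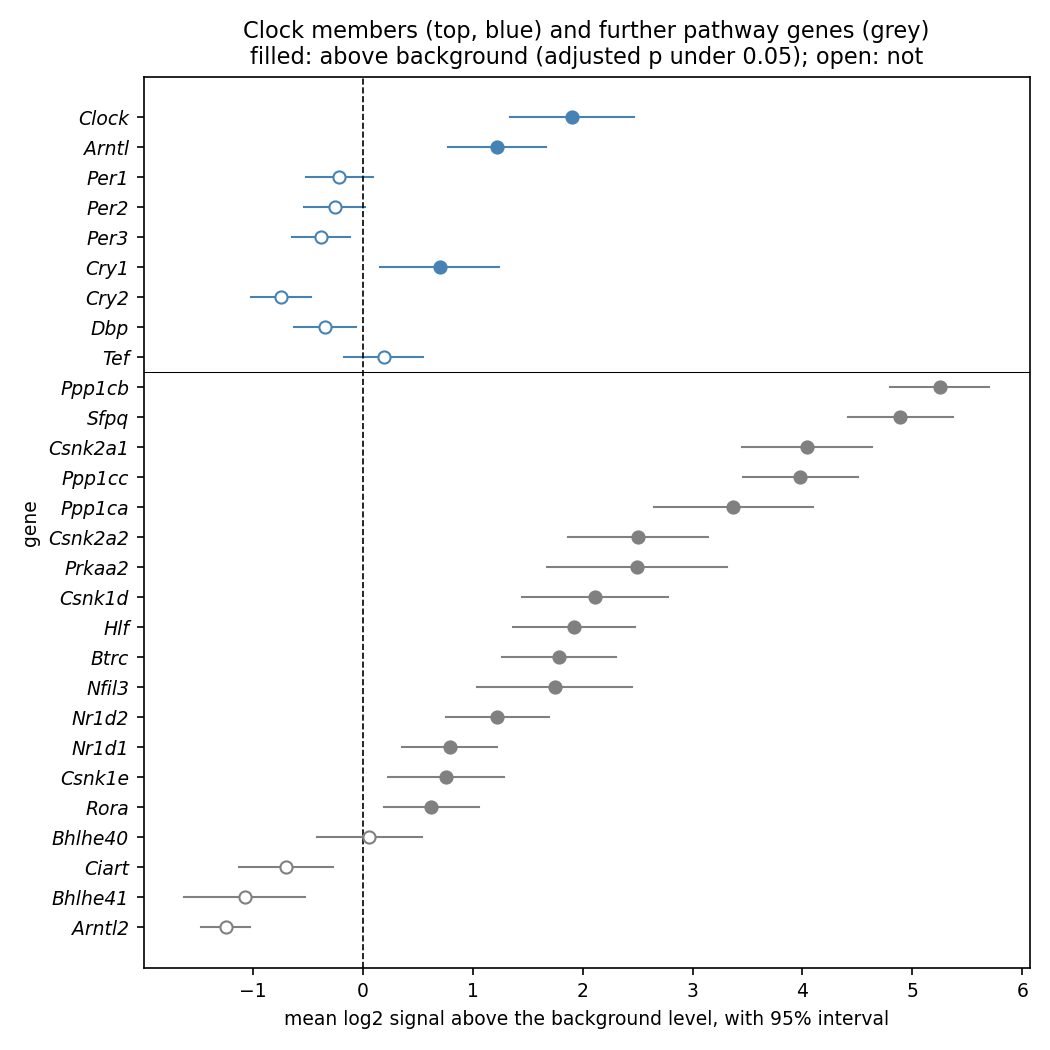
Mean log2 signal above the background level (horizontal axis) with limma's 95% interval for the 9 clock members (blue) and 19 further pathway genes (grey). Filled points passed the test and open points did not, and among PAR bZip genes Hlf is filled at 1.92 while Dbp and Tef are open.

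The calls of single members rested on the level taken as background. With a level from 167 vomeronasal receptor genes 8 of 9 members passed, all but Cry2, against 65.9% of all genes. With the 99th in place of the 95th percentile of the olfactory receptor genes, only Clock passed (16.6% of all genes), and with a level from 44 keratin-associated protein genes 0 of 9 did by limma (3.56% of all genes), and 0 had an unadjusted p under 0.05. The intervals cover the spread between arrays and not that between background probes.

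**Figure D3:**
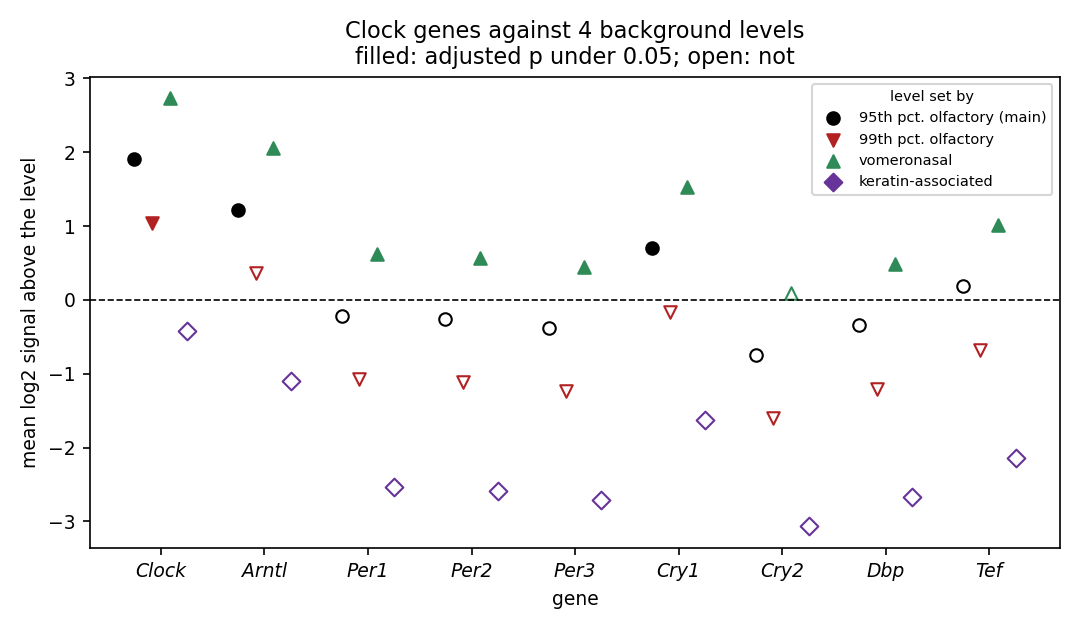
Mean log2 signal above the level (vertical axis) of the 9 clock genes under 4 choices of background level, filled where limma's adjusted p was under 0.05. Clock is filled under 3 of the 4 levels, and the Per genes and Dbp only under the vomeronasal level.

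Around the core, more of the pathway was above background. Of 43 further clock genes listed, 38 were measured and 27 of these passed, with a median of 1.52 above the level, against 37.3% of all genes and a median of -0.01. Kinases, phosphatases and ubiquitin ligase subunits with broad functions in the cell make up many of the 27. The list was drawn up with earlier results of these data known, so its count does not bear on the clock as such.

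The receptors that act on Arntl passed. Nr1d1, encoding REV-ERB alpha, a repressor, gave 7.22, 7.16 and 7.02 and stood 0.79 above background (limma adjusted p = 0.00517). Nr1d2, encoding REV-ERB beta, gave 7.61, 7.59 and 7.49, 1.22 above (limma adjusted p = 0.000838). Rora, encoding the activator ROR alpha, gave 7.14, 6.98 and 6.79, 0.63 above (limma adjusted p = 0.0162). All 3 genes were above the level on every array and highest in replicate 2. Rora missed the threshold when replicate 2 was left out (limma adjusted p = 0.1) and when replicate 4 was (limma adjusted p = 0.0645). At the 99th percentile Nr1d1 and Rora were under the level and Nr1d2 missed the threshold (limma adjusted p = 0.222).

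On the D-box side, the third PAR bZip gene and the opposing repressor passed. Hlf gave 8.34, 8.41 and 8.03 and stood 1.92 above background (limma adjusted p = 0.000191). Nfil3, which encodes the repressor E4BP4, gave 8.82, 7.61 and 7.84 and stood 1.75 above (limma adjusted p = 0.0011), with replicate 2 higher by 1.09 than the mean of the others. At the 99th percentile Nfil3 missed the threshold (limma adjusted p = 0.0557).

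Other repressors of the heterodimer did not pass. Bhlhe40, encoding DEC1, gave 6.64, 6.63 and 5.94 (0.06 above the level, limma adjusted p = 0.807), and Bhlhe41, encoding DEC2, 5.59, 5.66 and 4.55 (-1.07). Both were lowest in replicate 5. Ciart, encoding CHRONO, gave 4.96, 6.14 and 5.83 (-0.70). Its other probe set gave 4.67, 4.39 and 6.16, a mean of 5.07. That probe set was lowest in replicate 4, where the first was highest, so the array order of Ciart is not settled. Arntl2, a paralogue of Arntl, was the lowest of the list at 5.07, 5.04 and 5.17 (-1.25).

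Genes that set the life of the PER proteins were above background. Csnk1d, encoding casein kinase 1 delta, gave 8.72, 8.74 and 7.91 (2.11 above, limma adjusted p = 0.000291). Csnk1e, encoding the epsilon kinase, gave 7.55, 6.64 and 7.10 (0.76 above, limma adjusted p = 0.0164), and missed the threshold when replicate 2 was left out (limma adjusted p = 0.0974). Both kinases phosphorylate PER proteins. Btrc, encoding the ubiquitin ligase subunit that recognises phosphorylated PER, gave 7.86, 7.97 and 8.54 (1.78 above, limma adjusted p = 0.000196). The 4 called genes of the list with the highest mean signals, picked by that rule and not ranked by abundance, were the protein phosphatase 1 subunits Ppp1cb (5.25 above) and Ppp1cc (3.98), the PER-associated RNA-binding protein gene Sfpq (4.89) and the casein kinase 2 subunit gene Csnk2a1 (4.04). Besides Nfil3, with a range of 1.20 log2 units between arrays, the called genes of the list with a range over 1 were Prkaa2, encoding a subunit of AMP-activated kinase (1.49), Ppp1ca (1.17) and Csnk2a2 (1.10).

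Of 15 genes listed as clock outputs, 13 were measured and 8 passed, with a median of 0.61 above the level, against 37.3% of all genes and a median of -0.01. The 4 called genes with the highest mean signals, again not a ranking of abundance, were Aqp2, the water channel of principal cells (1.89 above), Scnn1a, encoding the alpha subunit of the epithelial sodium channel (1.68), Slc9a3, encoding the sodium-hydrogen exchanger of the proximal tubule (1.24), and Avpr2, the vasopressin receptor gene (1.10). Hsd3b6, a steroid dehydrogenase gene controlled by the clock in the adrenal, was the lowest (-0.71). It gave 5.25, 4.95 and 6.70, over its level in replicate 5 alone, and did not pass. Hsd3b6, Scnn1a and Slc9a3 had a range over 1 log2 unit between arrays (1.75, 1.55 and 1.33). At the 99th percentile Scnn1a, Slc9a3 and Avpr2 lost their calls (limma adjusted p = 0.149, 0.621 and 0.539), and Slc9a3 also did without replicate 2 (limma adjusted p = 0.063). Aqp2, Scnn1a, Slc9a3 and Avpr2 are known as tubule genes, and markers of tubule cells were measured in these sorted samples. Of the measured markers 8 of 8 for proximal tubule, 4 of 4 for thick ascending limb, 2 of 4 for distal tubule, 4 of 4 for principal cells and 4 of 4 for intercalated cells passed. The counts were 6 of 6 for renin and mural cells, 5 of 7 for endothelium, 2 of 5 for macrophages, 0 of 3 for podocytes and 0 of 3 for lymphocytes by limma, against 37.3% of all genes. Of those last 6 genes 0 had an unadjusted p under 0.05. Ren1 and Akr1b7, defining markers of renin cells, were not analysed here. Which cells the clock transcripts came from was not tested.

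The range from the lowest to the highest array was 0.99 log2 units for Cry1, 0.58 for Clock and 0.31 or less for the other 7 genes. The median range was 0.25 over the members, 0.41 over all genes and 0.51 over genes called above background. Of the 9 members 6 were not above background, where a narrow range says little about the transcript. Among called genes 13.7% had a range over 1 log2 unit, and 0 of the 3 called members did. A range larger than that of Cry1 was found in 14.1% of called genes, one larger than that of Clock in 43.0% and one larger than that of Arntl in 91.4%.

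No array was high or low for the whole set. Replicate 5 was above the mean of the other arrays for 7 of 9 members, replicate 2 for 5 and replicate 4 for 2. Over all genes the median difference of replicate 5 was 0.04, and over called genes -0.19. Clock, Per1 and Cry1 were highest in replicate 2 and lowest in replicate 4, an order shared by 15.0% of called genes and 13.6% of all genes. Per1, which was not above background, gave 6.21 in both replicates 2 and 5, so its highest array is not settled. Relative to the mean of the other arrays, replicate 2 was higher by 0.42 for Clock and 0.72 for Cry1, and replicate 4 stood at -0.44 and -0.76. Arntl, Per2 and Per3 were highest in replicate 5 and lowest in replicate 2 (9.71% of called and 20.5% of all genes), with replicate 5 higher by 0.17, 0.30 and 0.18. The background level was also highest in replicate 5. Relative to each array's level, Arntl stood at 1.30, 1.19 and 1.17 and Per3 at -0.31, -0.40 and -0.42 in replicates 2, 4 and 5. By that measure both were highest in replicate 2 and lowest in replicate 5. Per2, at -0.23, -0.32 and -0.22, remained highest in replicate 5. Dbp and Tef were highest in replicate 4, by 0.20 and 0.15, and Cry2 in replicate 2, by 0.10. Relative to the level, Tef was slightly higher in replicate 2 (0.35) than in replicate 4 (0.32). Over the activators and over the repressors the median difference of replicate 4 was -0.26 and -0.13, and over the PAR bZip genes 0.18. These medians cover 2, 5 and 2 genes, of which 2, 1 and 0 were above background. Over all genes the median difference of replicate 4 was -0.03, and over called genes 0.05. These differences have no test, because the 3 arrays are 1 group.

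**Figure D4:**
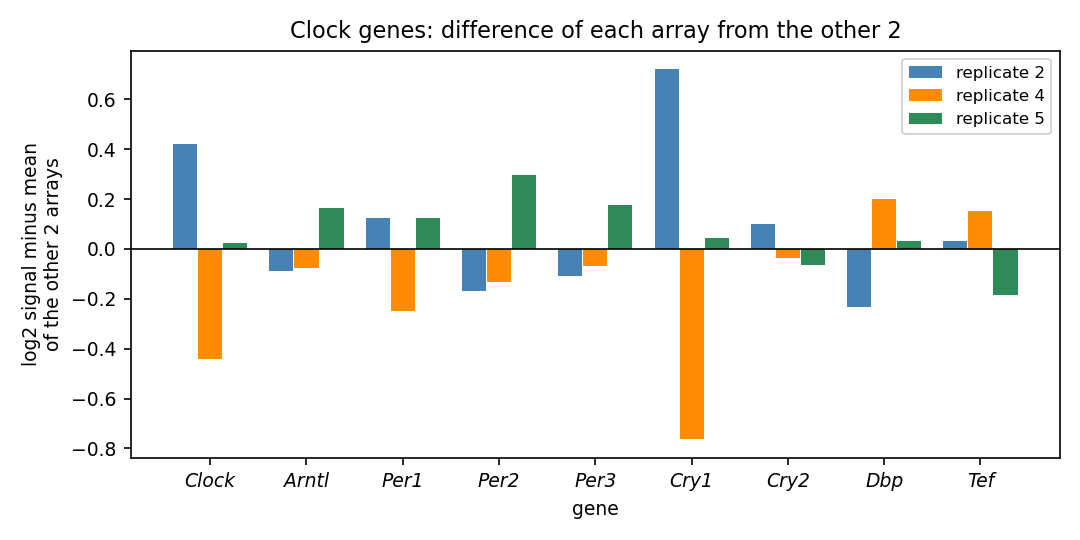
Log2 signal of each array minus the mean of the other 2 (vertical axis) for the 9 clock genes (horizontal axis), coloured by replicate. Cry1 and Clock show the largest bars, up in replicate 2 and down in replicate 4, and all other bars are within 0.30 of 0.

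Other transcripts also differed between these arrays. The mean log2 signal over 7 endothelial markers was 8.52 in replicate 2 and 7.33 and 7.18 in replicates 4 and 5. Over 17 measured early response and dissociation genes, of which 10 passed (37.3% of all genes), the means were 7.59, 7.12 and 7.18. Over the 6 renin and mural markers they were 11.70, 11.31 and 11.46. Some tubule markers were highest in replicate 4, with means of 10.81, 11.34 and 10.31 over 4 thick ascending limb markers, 7.73, 8.60 and 8.09 over 4 principal cell markers and 11.35, 11.45 and 10.84 over 8 proximal tubule markers. Of the early response and dissociation genes, the brightest were Ccn1 (10.54, 8.94 and 9.41) and Hspa1a (9.64, 9.30 and 8.52). Both passed (3.29 and 2.81 above the level) and were highest in replicate 2. The lowest was Fosl1 (5.52, 5.35 and 6.04), which was under the level on every array and highest in replicate 5. Fos gave 6.60, 6.33 and 6.41 and did not pass (0.11 above the level, limma adjusted p = 0.552). The part of these transcripts in the differences of Clock and Cry1 was not tested. After quantile normalization of the arrays, Cry1 kept its high replicate 2 (0.66 over the others) and low replicate 4 (-0.76). Clock kept its low replicate 4 (-0.54), but replicates 2 and 5 were then close to each other (0.29 and 0.25 over the others). The height of Per3 in replicate 5 was then 0.06 and that of Arntl 0.31, so these smaller differences moved with the scaling of the arrays.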

How the data were processed

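Expression was measured on 1-colour Affymetrix arrays in 3 samples of 1 group. Each deposited value is the log2 signal of a probe set on an array. Affymetrix Expression Console is named per the submitters' processing notes, and the sources used here do not give its summary method or normalization. A log2 scale is assumed because of the range of the values, with array medians of 6.09, 6.11 and 6.21, and the number of arrays, 3, limits the precision. Of 35557 probe sets, 21789 had 1 gene symbol in the platform annotation, 1621 had several and were left out, and 12147 were unnamed. The brightest probe set stood for a gene. Entrez identifiers matched 21698 of the 21789 to the RefSeq table of GRCm38.p6, which changed 0 symbols.

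For each gene limma 3.58.1 (R 4.3.3) estimated the mean of log2 signal minus background level, eBayes taking a trend, with a one-sided test and Benjamini-Hochberg adjustment over 19938 genes. The 95% intervals are two-sided. Unadjusted, 8086 genes had p under 0.05. On simulated arrays of 19938 genes, genes were placed 0.5, 1, 2 and 3 log2 units over the level, and 68%, 98%, 100% and 100% passed. Of those with a true mean not over it, 0.121% passed. These genes kept their measured means, down to -3.72, so 0.121% is not the rate for genes close to the level. Error in the level itself was not simulated. Alternatives were other percentiles and families for the background, the mean of probe sets, quantile normalization, no trend, and leaving out each array. Python 3.11.15, pandas 2.3.3 and numpy 2.4.6 were used.

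Members and lists were chosen with earlier results of these data known. Named pathway and output genes were 14 regulators listed by name, where measured, called genes with a range over 1 log2 unit, the 4 brightest called and the lowest. The rule also named look-alike genes for called members with a range over 1 log2 unit, of which there were 0.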

Additional observations from a re-analysis of the deposited data

How the results depend on the processing

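Leaving out 1 array gave 6051 to 7806 genes, 2 to 3 clock members and 25 to 28 further pathway genes above background, against 7437, 3 and 27 with all arrays. The background mattered more. The 99th percentile of olfactory receptor genes gave 3303 genes and 1 member (Clock) by limma, and 18 pathway genes. A level from vomeronasal receptor genes gave 13140 genes and 8 members, and one from keratin-associated protein genes 709 genes, 0 members and 4 pathway genes. Means crossed the level as follows. With the vomeronasal level Per1 was 0.62, Per2 0.57, Per3 0.45, Cry2 0.088, Dbp 0.48, Ciart 0.13 and Hsd3b6 0.12 above. With the 99th percentile Cry1 was at -0.16, Tef at -0.67, Bhlhe40 at -0.80, Nr1d1 at -0.071, Rora at -0.24 and Csnk1e at -0.11. With the keratin-associated level Clock was at -0.42, Arntl at -1.10, Cry1 at -1.63, Tef at -2.14, Bhlhe40 at -2.27, Nfil3 at -0.58, Nr1d1 at -1.53, Nr1d2 at -1.10, Rora at -1.70, Hlf at -0.41, Csnk1d at -0.21, Csnk1e at -1.57, Btrc at -0.54, Scnn1a at -0.65, Slc9a3 at -1.09, Aqp2 at -0.44 and Avpr2 at -1.22. These follow from the height of each level. With 1 array left out Bhlhe40 lay between -0.13 and 0.37, under the level without replicate 2 and without replicate 4 (-0.065). Over 81 pairs of a member and an alternative, 67 kept direction and side of the threshold. All the others came from another background level, except Cry1 without replicate 2. The pooled count is therefore no measure of how stable the calls are to the choice of background. The mean of probe sets, quantile normalization and no trend changed no member's call. Each measured member had 1 probe set, so the mean of probe sets could move only the background level under it. No paired analysis was possible because the series has 1 group.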
